A study of Arabidopsis thaliana with 4 samples.

Results

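The genes of the mitochondrial genome were followed in nuclei of Arabidopsis thaliana root tips, as the rows of the deposited gene tables whose identifier begins with ATMG. There were 152 such rows among 32833 gene rows. Their counts were summed per library over barcodes with more than 1000 and fewer than 25000 RNA counts. The choice of rows used the identifier alone and no measured value. Nuclei came from root tips of 5 mm of the wild type Col-0 and were profiled by the Chromium multiome assay, which reads polyadenylated RNA and open chromatin from the same nucleus. Stress plants grew on medium with sorbitol, which the labels call osmotic stress, and control plants grew on the same medium without it. Each group had 2 libraries, which the study describes as biological replicates, so p-values measure the spread between these libraries. All 4 libraries shared the genotype, and no transgene was involved.

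The mitochondrial genome of plants holds a small set of genes for the respiratory chain, the ATP synthase, cytochrome c maturation, ribosomal proteins, ribosomal RNAs and transfer RNAs, next to many open reading frames of unknown function. These genes are transcribed inside the organelle by phage-type RNA polymerases, and their transcripts are edited, spliced and trimmed by proteins that the nucleus encodes. In plant mitochondria a poly(A) tail marks a transcript for decay, so a count of polyadenylated RNA is not a measure of the whole transcript pool. Chromosome 2 of the Col-0 nucleus carries a large insertion of mitochondrial DNA near its centromere. Mitochondrial RNA is not made in the nucleus, and what carried it into the droplets was not tested.

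The deposited tables pair no ATMG identifier with a name or a position. Notes in the RefSeq annotation of TAIR10.1 tie 53 of the 152 identifiers to a related gene or pseudogene in the nucleus, all on chromosome 2, and 24 of the 53 to a product other than an unknown protein. Names are used below for those identifiers only. In that assembly the mitochondrial record has 367808 bases, and 67.6% of its windows of 100 bases occurred without a mismatch on the nuclear chromosomes, 67.5% on chromosome 2. The mitochondrial sequence to which the authors aligned their reads was not used here and may differ from this record.

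The following stretches are shown because a read from them cannot be assigned to the mitochondrial or the nuclear copy by its sequence. The whole atp9 gene, which encodes the membrane ring subunit of the ATP synthase, lies on the minus strand of the mitochondrial record at positions 270961 to 271185 and was found base for base at chr2:3251856-3252080 on the minus strand, inside the protein-coding gene AT2G07671 (chromosome 2, 3251566 to 3252341). The last 150 bases of cob, the gene of apocytochrome b, lie on the minus strand at 181677 to 181826 and were found at chr2:3451895-3452044 on the plus strand, inside the protein-coding gene AT2G07727 (3449534 to 3452776). Both are written 5′ to 3′ from RefSeq (TAIR10.1), and capitals mark the first and last codon of atp9 and the last codon of cob.
atp9: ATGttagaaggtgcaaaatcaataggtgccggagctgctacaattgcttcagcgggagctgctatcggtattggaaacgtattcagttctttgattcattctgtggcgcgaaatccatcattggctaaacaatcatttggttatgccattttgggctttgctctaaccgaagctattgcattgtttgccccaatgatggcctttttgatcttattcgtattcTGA
cob: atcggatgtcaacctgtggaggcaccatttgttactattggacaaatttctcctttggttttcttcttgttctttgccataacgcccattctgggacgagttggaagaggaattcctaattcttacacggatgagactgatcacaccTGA
Each of these sequences occurred 1 time on chromosome 2. Among 38 mitochondrial genes of RefSeq long enough for a window, 15 had a nuclear copy of every window and 8 had a copy of none, with genes that RefSeq gives in several parts counted 1 time. The ribosomal RNA genes rrn26, rrn18 and rrn5 and cox1, which encodes subunit 1 of cytochrome c oxidase, were among the 8.

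Nuclei within the RNA limits numbered 7687 and 6499 in stress replicates 1 and 2, and 3213 and 6133 in control replicates 1 and 2. They carried between 17567594 and 37717096 RNA counts per library, of which 3 counts make between 0.0795 and 0.171 CPM, the count of a gene scaled to a common library total. Pairs of libraries shared 29 to 83 barcodes. Control replicate 1 stood apart. Only 46.1% of its nuclei also passed the study's limits on peak counts, against 77.7% to 85.8% in the other libraries. HSP23.6, a small heat shock protein of mitochondria, had 0.901 and 0.727 CPM in the stress libraries, against 59.2 and 0.434 CPM in the control libraries. Results are therefore given with and without that library. Control replicate 2 also stood apart, in the clusters of nuclei described below, so neither control library is taken as the reference. The part of these differences in the results was not tested.

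ATMG counts were a small and uneven share of the RNA of a nucleus. They numbered 626058 and 534606 in the stress libraries, and 432770 and 425039 in the control libraries. This was 1.66% and 1.69% of RNA counts in the stress libraries, against 2.46% and 1.42% in the control libraries. The stress libraries lay between the control libraries and differed from each other by far less. The mean share was 0.266 percentage points lower under stress with all libraries and 0.256 points higher without control replicate 1. With control replicate 2 left out, the difference was -0.789 points, so the sign depends on which control library is kept. These sums are descriptions with no test. With the limits on peak counts added, the shares were 1.64% and 1.66% in the stress libraries, and 2.43% and 1.40% in the control libraries.

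The same order held for single nuclei. The median nucleus had 58 ATMG counts in each stress library, and 99 and 48 in the control libraries. The median share was 1.49% and 1.52% in the stress libraries, and 2.29% and 1.29% in the control libraries. Control replicate 1 differed most in its upper range, where 10.2% of nuclei had a share over 5%, against 0.533% to 0.783% in the other libraries. Its highest nucleus reached 40.3%. Every nucleus within the limits, 23532 in all, held at least 1 count of ATMG00020. No cell type of the root lacks mitochondria, so no class could serve as a background for this share.

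**Figure D1:**
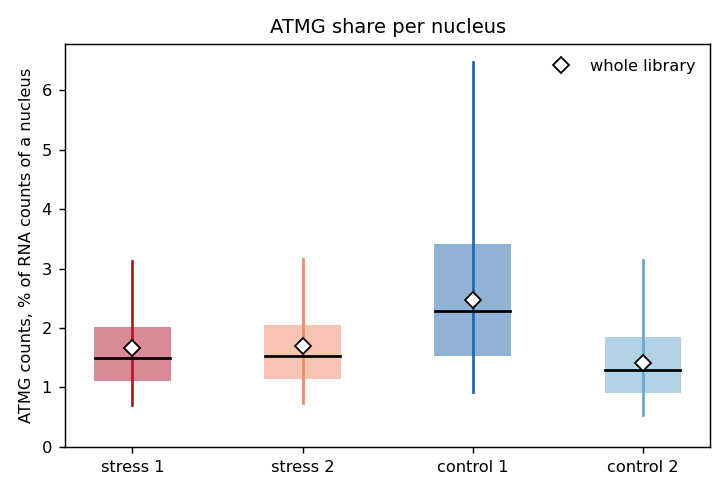
ATMG counts as percent of the RNA counts of a nucleus (y axis) in the 4 libraries. Boxes span the 25th to 75th percentile over nuclei with the median as a line, whiskers the 5th to 95th percentile, and diamonds give the share of the whole library, at 1.66% and 1.69% for stress and 2.46% and 1.42% for control.

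The share also followed the depth of a barcode differently in control replicate 1. In barcodes with 1000 to 2000 RNA counts it was 1.62% and 1.72% in the stress libraries, and 3.81% and 1.54% in the control libraries. In those with 8000 to 25000 it was 1.59% and 1.63% in the stress libraries, and 2.09% and 1.24% in the control libraries. Over the range of the limits, the share thus moved little in the stress libraries and fell with depth in control replicate 1. Barcodes with at most 1000 RNA counts, which lie outside the limits, had the highest share of any depth, with 2.73% and 2.64% in the stress libraries, and 5.71% and 2.78% in the control libraries.

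**Figure D2:**
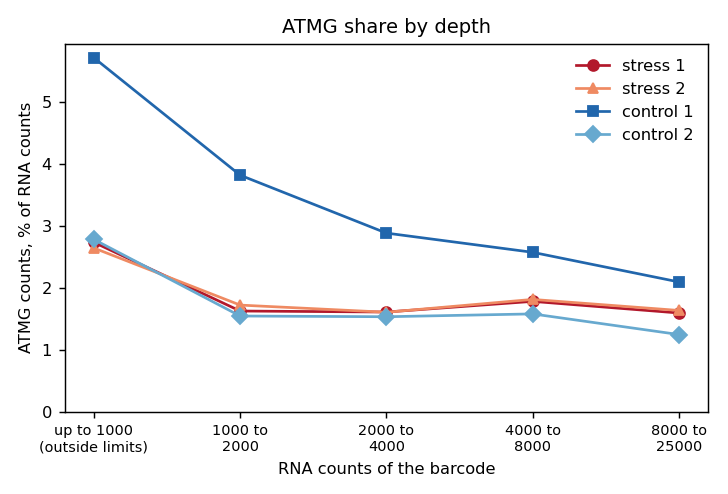
ATMG counts as percent of RNA counts (y axis), summed over barcodes by their RNA counts (x axis), for stress and control libraries. Control replicate 1 lies above the other libraries at every depth, from 5.71% to 2.09%, while the others lie between 1.24% and 1.81% within the limits.

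Nearly all ATMG counts belonged to a single identifier. ATMG00020 had 598430 and 510916 counts in the stress libraries, and 393596 and 403837 in the control libraries. It made up 95.6% of ATMG counts in each stress library, and 90.9% and 95.01% in the control libraries. By itself it was 1.59% and 1.61% of all RNA counts in the stress libraries, and 2.24% and 1.35% in the control libraries. ATMG01390 came next, with 13667 and 11814 counts in the stress libraries, and 22068 and 11573 in the control libraries. That was 2.18% and 2.21% of ATMG counts under stress, and 5.10% and 2.72% in control. Neither identifier is tied to a product by the annotation used here. These are shares of counts and not levels of transcripts, since lengths of the counted genes are not used.

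The 2 leading identifiers did not keep a fixed ratio. There were 43.8 and 43.2 counts of ATMG00020 for each of ATMG01390 in the stress libraries, and 17.8 and 34.9 in the control libraries. All other identifiers together summed to 13961 and 11876 counts in the stress libraries, and 17106 and 9629 in the control libraries. This was 370 and 375 CPM under stress, against 974 and 321 CPM in control. The excess of control replicate 1 over control replicate 2 was therefore larger for ATMG01390 and the minor identifiers than for ATMG00020. Among the minor identifiers, ATMG00090 had 67.2 and 69.6 CPM in the stress libraries, and 222 and 61.4 CPM in the control libraries. ATMG00580 had 66.0 and 66.8 CPM under stress, and 164 and 60.0 CPM in control. ATMG01380 was less uneven, with 40.0 and 35.5 CPM under stress, and 44.1 and 28.8 CPM in control.

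Of the 152 identifiers, 55 had no count in any library, which allows up to 3 counts per library, and 34 had 1 to 10 counts over all libraries. Only 39 reached 100 counts in all. Control replicate 1 had the highest CPM of the 4 libraries in 39 of these 39, and control replicate 2 had the lowest in 29. The CPM of control replicate 1 was a median of 3.11 times that of control replicate 2, with a range of 1.53 to 9.32 times. Between the stress libraries, replicate 1 had a median of 0.971 times the CPM of replicate 2, with a range of 0.741 to 1.90 times. The spread between control libraries was thus the larger one for these genes. It was also the larger one over genes of all kinds. There the deviation of a library from its group mean had a standard deviation of 0.298 in control and 0.0661 in stress. A larger control spread was therefore not limited to ATMG genes. Whether it was larger for them than for other genes was not tested.

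**Figure D3:**
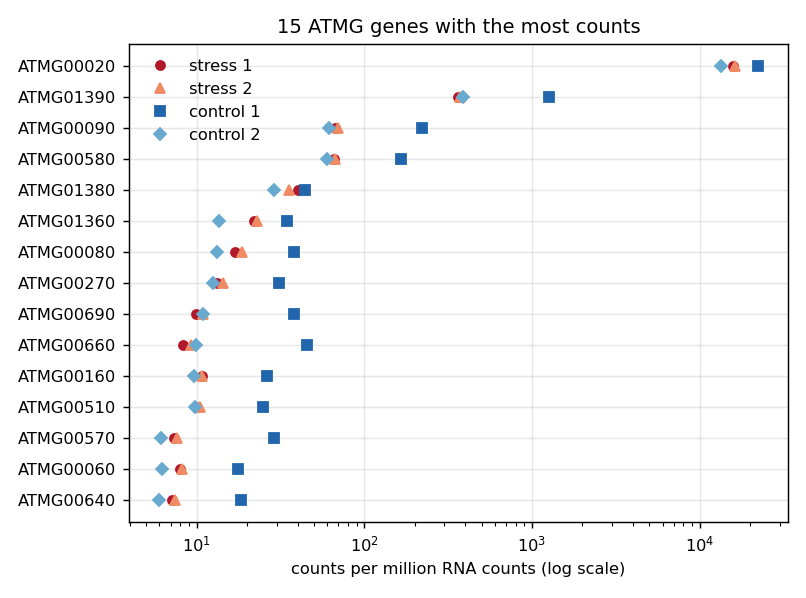
CPM (x axis, log scale) of the 15 ATMG genes with the most counts in stress and control libraries, without mean or error since each group has 2 points. Control replicate 1 lies farthest right for each gene, while control replicate 2 lies near the stress libraries.

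Most counts of the identifiers that notes tie to a product of the groups below lay on their chromosome 2 copies, with exceptions in both directions. The 53 tied identifiers had 4113 counts in all, 0.204% of ATMG counts, and 22 of them had none. Sorted by product, 19 identifiers of cytochrome b, cytochrome c oxidase, ATP synthase, NADH dehydrogenase, cytochrome c biogenesis and ribosomal proteins had 2742 counts over the 4 libraries, and the 20 chromosome 2 genes paired with them had 29938. Whether a count on either side came from mitochondrial RNA or from the nuclear gene cannot be told apart where the sequences are the same.

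For cytochrome b, the core subunit of respiratory complex III, both identifiers had no count in any library. ATMG00220, tied to apocytochrome b, had 0 counts, while its copy AT2G07727 had 1033 and 850 counts in the stress libraries, and 1196 and 604 in the control libraries. All windows of AT2G07727 occur in the mitochondrial record. For ATP synthase, ATMG01080, the identifier of subunit 9, had 155 and 142 counts in the stress libraries, and 232 and 83 in the control libraries. Its copy AT2G07671, which contains the atp9 sequence printed above, had 2937 and 2451 counts under stress, and 3490 and 3268 in control. ATMG01190, the identifier of ATP synthase subunit 1 and thus of the catalytic head, had 57 counts in all, against 2971 for its copy AT2G07698. ATMG00410, tied to subunit 6-1 of the same enzyme, went the other way, with 244 counts and 0 on its copy AT2G07741. Summed over the 5 identifiers of ATP synthase there were 1114 counts, against 15763 on the copies.

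Cytochrome c oxidase, the terminal enzyme of the chain, had 314 counts on its 2 identifiers and 1990 on their copies. Of these, ATMG00730, tied to subunit 3, had 299 counts, and its copy AT2G07687 had 952. Among the 4 identifiers of ribosomal proteins, ATMG00290, tied to protein S4, had 1 count and the other 3, tied to L5, S12 and S7, had none, against 3567 on the copies. Cytochrome c biogenesis, which attaches haem to cytochrome c, was more even, with 922 counts on 3 identifiers and 1148 on the copies. ATMG00180, tied to a protein of this step (ccmFC), had 857 of these. NADH dehydrogenase, complex I, was the exception, with 391 counts on 3 identifiers and 119 on the copies. ATMG01320, tied to subunit 2B, had 375 counts and its copy AT2G07689 had 18, and ATMG00990, tied to subunit 3, had 16 counts and its copy AT2G07751 had 0.

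**Figure D4:**
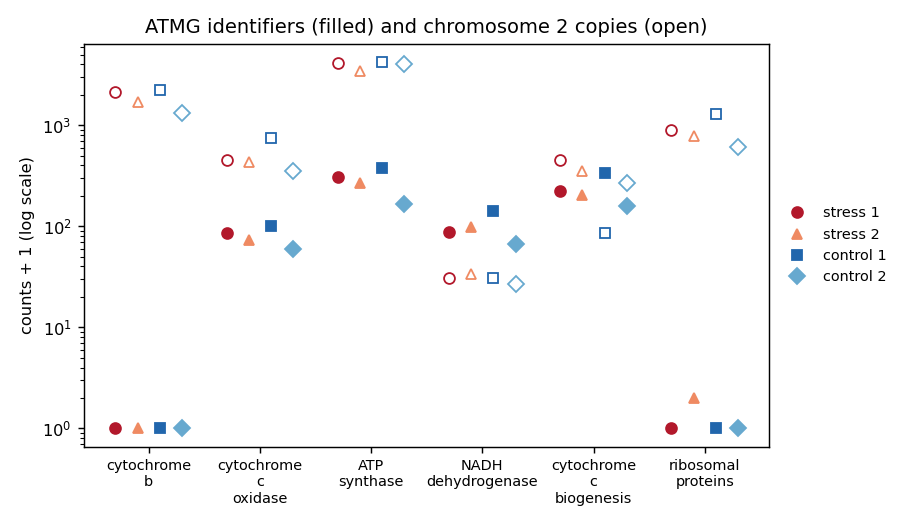
Counts plus 1 (y axis, log scale) of ATMG identifiers (filled) and of the chromosome 2 genes paired with them (open), by product group and library, stress before control. Cytochrome b has 0 counts on its ATMG identifiers and 7351 on the copies over 4 libraries, while NADH dehydrogenase has 391 on its identifiers and 119 on the copies.

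The chromosome 2 copies varied between libraries much as the minor ATMG identifiers did. Of 90 genes in the block from AT2G07667 to AT2G07835, 46 had at least 90% of their windows in the mitochondrial record. These had 252 and 253 CPM in the stress libraries, and 575 and 250 CPM in the control libraries. For each 100 counts on minor ATMG identifiers, these genes had 68.2 and 67.4 counts in the stress libraries, and 59.1 and 77.9 in the control libraries. Tested across all genes by edgeR, 22 of the 46 passed the filter on low counts. Of these 0 were called, where 9.88% of all genes were called. An unadjusted p under 0.05 was given to 2 of the 22, against 34.8% of all genes tested. DESeq2 called 1 of 27 lower, where it called 7.34% of all genes lower and 8.64% higher. With control replicate 1 left out, 2 were called higher and 1 lower of 22, where 29.0% and 29.4% of all genes were called, and the median log2 change was 0.13, against -0.91 with all libraries. With control replicate 2 left out, 1 was called higher and 23 lower of 26, where 30.8% and 29.9% were called. In 20 of the 22 the highest library was control replicate 1.

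Stress was then compared with control in whole libraries. None of the 48 ATMG genes that passed the filter on low counts was called higher or lower, whereas 2033 of 20587 genes tested, or 9.88%, were called by the edgeR quasi-likelihood test at a Benjamini-Hochberg adjusted p under 0.05. Without adjustment, 1 of the 48 had a p under 0.05, against 34.8% of all genes tested. DESeq2 called 4 ATMG genes lower and 0 higher, of 53 with an adjusted p, where it called 7.34% of all genes lower and 8.64% higher. Of the 48 genes, 47 had a negative log2 change, with a median of -0.93, while the median over all genes tested was -0.0027. With CPM scaled by the trimmed mean of M-values (TMM), as in the fit, both stress libraries lay below both control libraries in 18 of the 48 and above both in 0, against 32.5% and 35.8% of all genes tested. With the plain CPM printed here, they lay below in 7 of the 48 and above in 0, against 18.7% and 50.4% of all genes tested. Plain CPM moved the median log2 difference of all genes tested to 0.20.

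These directions rested on control replicate 1. Without it, 8 ATMG genes were called higher and 5 lower of 48 tested, where 29.0% and 29.4% of all genes were called, and the median log2 change was 0.06. Without control replicate 2, 0 were called higher and 48 lower of 52 tested, where 30.8% and 29.9% of all genes were called, and the median was -1.59. Each of these fits leaves 1 control library, which is assumed to vary as the stress libraries do. Without either stress library, no gene of any kind was called.

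ATMG00020 did not differ beyond the spread between libraries. Its log2 change was -0.37 ± 0.29 (SE, 2 against 2 libraries), with an adjusted p of 0.402 (edgeR), and the change was 0.06 without control replicate 1. ATMG01390 changed by -1.37 ± 0.59 on the log2 scale, with an adjusted p of 0.183 (edgeR) and of 0.0408 by DESeq2. Its CPM was 362 and 373 in the stress libraries, against 1256 and 386 in the control libraries, so the groups did not overlap but control replicate 2 lay close to the stress libraries. Without control replicate 1, its log2 change was -0.26, with an adjusted p of 0.000161 (edgeR).

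The smallest adjusted p of an ATMG gene was that of ATMG00516, which is named here after its values were seen. It had 181 and 130 counts in the stress libraries, and 276 and 237 in the control libraries, or 4.80 and 4.11 CPM under stress against 15.7 and 7.91 CPM in control. All stress values were below all control values, and control replicate 2 also lay apart from stress. The log2 change was -1.60 ± 0.38, with an adjusted p of 0.0708 (edgeR) and of 0.00183 by DESeq2. With control replicate 1 left out it was -1.01, and with control replicate 2 left out -2.04. ATMG00516 is tied to no product by the notes.

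Among the genes called higher without control replicate 1 was ATMG01360, with 22.1 and 22.8 CPM in the stress libraries, and 34.4 and 13.5 CPM in the control libraries. Its log2 change was 0.54 in that fit, and with all libraries the groups overlapped. ATMG00660 was among those called lower in that fit, at -0.36, with 8.30 and 9.32 CPM under stress, and 45.7 and 9.91 CPM in control. Both were chosen after their values were seen.

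Nuclei were grouped on nuclear genes only, so that no ATMG row was used for the groups. The chromosome 2 copies were among the nuclear genes that could be used. Of 19 clusters, 12 took a name from fixed marker lists, and 7 classes had at least 20 nuclei in every library and together held 12343 of 23532 nuclei. They were trichoblast-like (root hair cells), atrichoblast-like (hairless epidermis), cortex-like, endodermis-like, pericycle-like, quiescent centre (QC) and initials-like, and dividing-like. The QC and initials-like class rested on 3 of 12 markers, the lowest share of a list, and the pericycle-like class on 3 of 8. At a finer resolution of 1.0, the QC and initials-like class kept 815 and 679 nuclei in the stress libraries, and 120 and 69 in the control libraries, against 858 and 684 under stress, and 824 and 788 in control. An unnamed cluster then held 79 and 39 stress nuclei, and 777 and 809 control nuclei. Values of this class are thus from partly different nuclei in stress and control. The cortex-like class came from different clusters in different libraries, since 98.1% of 1 of its 3 clusters came from control replicate 2. That cluster rested on 3 markers, 27.3% of its list, and held 761 of the 958 cortex-like nuclei of control replicate 2. Cortex-like values of that library thus come mostly from this cluster. Control replicate 2 also made up 87.05% of an unnamed cluster of 1390 nuclei and 75.1% of another of 1431. Cells of a class with more mitochondria and those with less nuclear RNA cannot be told apart by a share.

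The ATMG share differed between classes in a like way in most libraries. Trichoblast-like nuclei had 2.19% and 2.30% in the stress libraries, and 3.31% and 1.79% in the control libraries. They ranked first of 7 in 3 libraries and second in control replicate 1, and their share was 1.26 to 1.36 times that of their whole library. Some groups outside the 7 classes were higher in control replicate 2. Xylem-like nuclei had 2.17% and 2.23% under stress, and 3.46% and 2.20% in control, from 12 and 17 control nuclei. Phloem-like nuclei had 1.96% and 2.02% under stress, and 3.36% and 2.29% in control, from 9 and 38 control nuclei. An unnamed cluster of 4267 nuclei had 1.81% and 1.84% under stress, and 2.94% and 2.10% in control. The rank also depended on the clustering. At resolution 1.0 trichoblast-like nuclei ranked second in control replicate 2, where a root cap-like class had 1.80%. With the first random start, where a xylem-like class on 3 of 12 markers ranked first, they were second in all 4 libraries, at 1.16 to 1.28 times the whole library. Endodermis-like nuclei had 1.87% and 1.70% under stress, and 4.44% and 1.48% in control, where control replicate 1 had only 27 such nuclei. Cortex-like nuclei had 1.30% and 1.38% under stress, and 2.18% and 1.20% in control, which was 0.784 to 0.887 times their whole library. Dividing-like nuclei had 1.49% and 1.43% under stress, and 1.76% and 1.04% in control. Control replicate 1 was the highest library in 7 of 7 classes and control replicate 2 the lowest, as in the whole libraries.

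The classes also differed in depth. Dividing-like nuclei had a median of 6917 and 7014 RNA counts in the stress libraries, and 7000 and 6516 in the control libraries. Trichoblast-like nuclei had 5850.5 and 6247 under stress, and 4821 and 5921 in control. Cortex-like nuclei were shallower, with 3594 and 3792 under stress, and 3498.5 and 3173.5 in control. The part of depth in the class differences was not tested.

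**Figure D5:**
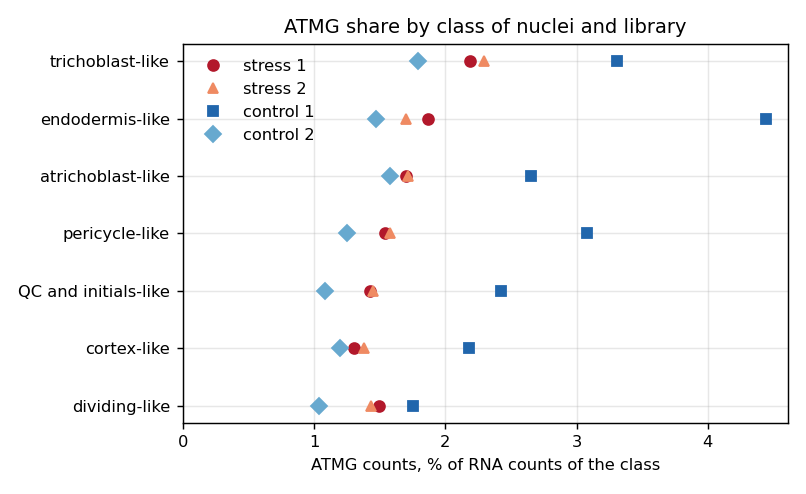
ATMG counts as percent of RNA counts (x axis) in 7 classes of nuclei, with a point for each stress and control library. Control replicate 1 lies to the right in each class, and trichoblast-like nuclei lie highest in both stress libraries, at 2.19% and 2.30%, and in control replicate 2, at 1.79%.

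The high share of control replicate 1 was not limited to its own cluster of nuclei. A single unnamed cluster of 333 nuclei held 330 from that library. In control replicate 1 the ATMG share was 2.06% in this cluster and 2.53% in all its other nuclei. HSP23.6 had 307 CPM in the cluster and 19.7 CPM in the other nuclei of the library.

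Single ATMG genes were tested for differences among the 7 classes, with the library as a term. Of 38 genes tested, 26, or 68.4%, were called by the edgeR quasi-likelihood F test, where 92.3% of all genes tested were called. The clusters were built from nuclear genes, so the share of all genes is not independent of the grouping, but the ATMG rows were not used for it. The chromosome 2 copies were not kept out, so counts from the same sequences could have entered the grouping. Whether they did was not tested. By fitted level, scaled between classes by TMM, ATMG00020 was highest in trichoblast-like nuclei, with 21071 and 22007 CPM in the stress libraries, and 30684 and 17243 CPM in the control libraries. By CPM, endodermis-like nuclei were higher in control replicate 1 alone, with 40743. The fitted level was lowest in cortex-like nuclei, with 12530 and 13283 CPM under stress, and 20176 and 11463 CPM in control. By CPM, dividing-like nuclei were lower in both control libraries, with 15638 and 9701, so the lowest class depends on the scaling. The span of its fitted levels over classes was 0.75 on the log2 scale, with an adjusted p of 2.00e-06 (edgeR).

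ATMG01390 spanned 0.87 on the log2 scale over the classes, with an adjusted p of 2.45e-06 (edgeR). Relative to the mean of the classes, its fitted log2 level was 0.26 in atrichoblast-like, 0.26 in QC and initials-like and 0.22 in endodermis-like nuclei, and -0.61 in cortex-like nuclei, so the upper classes lay close together. By CPM it was higher in endodermis-like nuclei, with 445 and 406 under stress, and 2543 and 456 in control, than in atrichoblast-like nuclei, with 413 and 394 under stress, and 1339 and 427 in control. Cortex-like nuclei had 228 and 259 CPM under stress, and 939 and 275 CPM in control, the lowest of the 7 classes in each library. Most of the minor genes called were highest in another class than ATMG00020. The 26 genes called below include ATMG00020 and ATMG01390. Of the 26 genes called, by fitted level, 11 were highest in QC and initials-like, 7 in atrichoblast-like, 4 in dividing-like, 3 in trichoblast-like and 1 in endodermis-like nuclei. Of the same 26, 12 were lowest in cortex-like, 8 in endodermis-like, 5 in pericycle-like and 1 in QC and initials-like nuclei. ATMG00090, for example, had 98.7 and 101 CPM in QC and initials-like nuclei under stress, and 295 and 82.1 CPM in control. In cortex-like nuclei it had 46.9 and 50.8 CPM under stress, and 136 and 45.7 CPM in control. The lowest places of endodermis-like nuclei rest on few counts. There ATMG01370 had 0 and 1 counts under stress, and 0 and 0 in control. ATMG00660 had 2 and 1 counts there under stress, and 3 and 1 in control.

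The make-up followed these orders. ATMG00020 made up 93.8% and 93.7% of ATMG counts in QC and initials-like nuclei under stress, and 89.3% and 93.4% in control. In cortex-like nuclei it made up 96.2% and 96.1% under stress, and 92.4% and 95.7% in control. In each library the share was lower in QC and initials-like than in cortex-like nuclei. Dividing-like nuclei were close to QC and initials-like ones, with 93.6% and 94.0% under stress, and 89.0% and 93.6% in control. The other identifiers without ATMG01390 had 476 and 480 CPM in QC and initials-like nuclei under stress, and 1165 and 386 CPM in control, against 261 and 276 CPM under stress, and 729 and 243 CPM in control in cortex-like nuclei.

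Stress was also compared with control within each class. In atrichoblast-like nuclei 4 of 34 ATMG genes tested were called lower, against 1637 of all 15418 genes tested (20.9% in either direction). In trichoblast-like nuclei 2 of 24 were called lower, against 1478 of all 15371 genes (15.7% in either direction). In pericycle-like nuclei 1 of 15 was called lower, against 257 of all 13674 genes (2.97% in either direction). No ATMG gene was called in cortex-like (0 of 28, 7.44% of all genes), dividing-like (0 of 22, 6.94%), endodermis-like (0 of 5, 2.84%) and QC and initials-like nuclei (0 of 36, 8.46%) by edgeR. At an unadjusted p under 0.05, these 4 classes had 2, 1, 1 and 4 ATMG genes in that order, against 29.3%, 22.97%, 15.1% and 24.8% of all genes. DESeq2 called 2 of 24, 0 of 16, 1 of 4 and 0 of 37, against 6.95%, 4.58%, 2.51% and 4.95% of all genes. In the classes with calls, edgeR gave an unadjusted p under 0.05 to 17 of 34 ATMG genes in atrichoblast-like nuclei (35.75% of all genes). It was 6 of 24 in trichoblast-like nuclei (32.3%) and 5 of 15 in pericycle-like nuclei (14.3%). With all libraries, no ATMG gene was called higher by edgeR in any class. Whether the classes differed in their response was not tested.

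Without control replicate 1 the calls changed. The shares of all genes in parentheses count calls in either direction, so they are not a background for calls in a single direction. In atrichoblast-like nuclei 4 of 33 ATMG genes were then called lower (33.1% of all genes), and in cortex-like nuclei 2 lower and 1 higher of 31 (41.1%). In QC and initials-like nuclei 4 of 37 were called higher (28.6%), in dividing-like nuclei 4 of 23 (16.1%) and in trichoblast-like nuclei 1 of 33 (21.3%). None was called by edgeR in pericycle-like nuclei (0 of 22, 3.95%) or in endodermis-like nuclei (0 of 6, 7.59%), with 1 gene at an unadjusted p under 0.05 in each.

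The calls rested in part on control replicate 1, and apart from ATMG01390 the called genes had at most 142 counts in a library. ATMG00516 was called in atrichoblast-like and in trichoblast-like nuclei. In atrichoblast-like nuclei it had 14 and 13 counts in the stress libraries, and 81 and 45 in the control libraries, a log2 change of -1.98 ± 0.45 with an adjusted p of 0.0177 (edgeR). Without control replicate 1 it changed by -1.33 there. The call was lost when either stress library was left out, which leaves 1 stress library. In trichoblast-like nuclei it had 35 and 22 counts under stress, and 31 and 9 in control from far fewer nuclei, or 7.81 and 5.79 CPM under stress against 31.7 and 11.6 CPM in control. The call there was lost without control replicate 1, with a change of -0.97 and an adjusted p of 0.236.

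ATMG01390 in pericycle-like nuclei had 278 and 314 CPM in the stress libraries, and 1516 and 347 CPM in the control libraries. It was called at a log2 change of -1.69 ± 0.38 with an adjusted p of 0.0166 (edgeR), and it was not called without control replicate 1, at -0.24 and 0.614. ATMG00660 in trichoblast-like nuclei was also not called without it, at -0.81 and 0.287. In atrichoblast-like nuclei ATMG00520, at -2.53 ± 0.54, ATMG00270, at -1.19 ± 0.34, and ATMG00285, at -1.51 ± 0.46, were called lower. The adjusted p of ATMG00285 was 0.04997 (edgeR), close to the threshold, and it was not called by DESeq2, at 0.169. Without control replicate 1 the log2 changes of ATMG00520, ATMG00270 and ATMG00285 were -1.96, -0.60 and -0.93 in that order. None of them was called there when either stress library was left out. Apart from ATMG01390, these genes were named after their values were seen.

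Nuclear genes of mitochondrial function were read in the same whole-library fit, where 6.8% of all genes were called higher and 3.07% lower under stress. Of the 7 genes tested of a list of 12 for alternative respiration, a route to oxygen that bypasses proton-pumping complexes, 1 was called lower and 0 higher. This was NDB2, an external NAD(P)H dehydrogenase, with 76.7 and 78.6 CPM in the stress libraries, against 112 and 114 CPM in the control libraries. Its log2 change was -0.74 ± 0.10, with an adjusted p of 0.0323 (edgeR). It was not called with the limits on peak counts added, at 0.181, or with the replicate block, at 0.0578. AOX1A, the main alternative oxidase, had 77.8 and 72.5 CPM under stress, against 43.3 and 51.2 CPM in control, and its change of 0.47 ± 0.13 was not called, at an adjusted p of 0.0856 (edgeR). With control replicate 1 left out its log2 change was 0.37.

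None of 26 nuclear genes of respiratory subunits was called by edgeR, and their median log2 change was -0.25. With the limits on peak counts added, 0 of the 26 were called and the median was 0.043, so its sign depends on the setting. With control replicate 1 left out the median was -0.15, and with control replicate 2 left out it was -0.36. Of 17 genes of mitochondrial RNA synthesis and processing, 0 were called, with a median of -0.098, among them RPOTM, the mitochondrial RNA polymerase, with 23.3 CPM in each stress library, and 25.7 and 16.0 CPM in the control libraries. With control replicate 1 left out the median of the 17 was 0.0054, and with control replicate 2 left out it was -0.25. At an unadjusted p under 0.05 edgeR had 9 genes of the list of respiratory subunits and 2 of the list of RNA synthesis and processing, against 34.8% of all genes. DESeq2 called 2 and 0, where it called 8.64% of all genes higher and 7.34% lower. The median over all genes tested was -0.0027. Of 7 genes of the response to mitochondrial dysfunction, 2 were called higher. NAC013, a transcription factor of this response, had 11.1 and 11.2 CPM under stress, against 3.81 and 4.17 CPM in control, a log2 change of 1.28 ± 0.13 with an adjusted p of 0.0227 (edgeR). UPOX, a mitochondrial protein induced by oxidative stress, had 10.8 and 9.89 CPM under stress, against 5.29 and 5.51 CPM in control, a change of 0.74 ± 0.13 with an adjusted p of 0.0460 (edgeR). Stress values lay above control values for both, as in 50.4% of all genes tested by plain CPM. Without control replicate 1 the log2 changes of NAC013 and UPOX were 1.23 and 0.72. With the limits on peak counts added, UPOX was not called, at an adjusted p of 0.0654 (edgeR), and with the replicate block it was 0.0780.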

How the data were processed

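RNA and open chromatin were measured by the authors in nuclei of root tips, and the values used here are counts of RNA molecules per gene and barcode, as deposited by the authors. Per the labels and the submitters' processing notes, reads were processed with Cell Ranger ARC 2.0.2 on TAIR10, with Seurat 4.3.0 downstream. Mitochondrial and plastid contigs were set as non-nuclear, so peaks were not used here. Barcodes with more than 1000 and fewer than 25000 RNA counts were kept and summed per library, and doublets were kept since no caller was run. Limits of 1000 and 100000 peak counts were an alternative. Each of the 4 libraries had between 17567594 and 37717096 counts. Floors of 3 counts cover counting error only.

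Stress was compared with control by the edgeR 4.0.16 quasi-likelihood test (R 4.3.3) with TMM scaling, filterByExpr and Benjamini-Hochberg adjustment over all genes tested, at 0.05. DESeq2 1.42.0 was an alternative. Standard errors are on the log2 scale. CPM is relative to all RNA counts. Nuclei were clustered with scanpy 1.11.5 and leidenalg 0.10.2 on nuclear genes at resolution 0.6, keeping the best of 10 random starts by quality, a choice made after the data were seen. Clusters were named from 12 marker lists, and classes needed 20 nuclei in every library. A rebuilt class may differ from the study's. Differences among classes were tested on sums per library and class with the library as a term. The scripts were tested on simulated data.

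Copies were found as windows of 100 bases that match without a mismatch. Genes named by rule were those with at least 2% of ATMG counts, and others were named after their values were seen where the text says so or where a note ties them to a product. The members and lists were chosen with earlier results of these data known. Leaving out each library, no filter on low counts, another resolution (1.0), another random start, library sizes from nuclear genes, every deposited barcode and a replicate block were the other alternatives.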

Additional observations from a re-analysis of the deposited data

How the results depend on the processing

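Calls of ATMG genes depended on the settings, and the cause was not tested. Each share in parentheses is that of all genes tested in the same setting. A stress fit without a library leaves 1 library in a group. Ranges over such fits are given without a share and are not read as results about ATMG genes. In whole libraries 0 of 48 ATMG genes were called (9.88%), 4 of 53 by DESeq2 (16.0%) and 1 of 48 with the replicate block (6.67%), and between 0 and 48 when a library was left out. In atrichoblast-like nuclei 4 of 34 were called (20.9%), 28 of 80 with no filter (20.8%), 18 of 34 with the replicate block (23.49%), 2 of 32 at resolution 1.0 (20.9%), 2 of 32 with the first random start (15.5%), and 0 to 35 when a library was left out. In cortex-like nuclei 0 of 28 were called (7.44%), 2 of 24 by DESeq2 (6.95%), 1 of 28 with the block (10.3%), and 0 to 21 without a library. In dividing-like nuclei it was 0 of 22 (6.94%), 7 of 66 with no filter (9.89%), 1 of 22 with the block (10.3%), and 0 to 16 without a library. In endodermis-like nuclei it was 0 of 5 (2.84%), 1 of 4 by DESeq2 (2.51%), 1 of 45 with no filter (1.59%), and 0 to 5 without a library. In pericycle-like nuclei it was 1 of 15 (2.97%), 0 of 5 by DESeq2 (3.08%), 2 of 56 with no filter (2.96%), and 0 to 5 without a library. In QC and initials-like nuclei it was 0 of 36 (8.46%), 26 of 85 with no filter (13.0%), 10 of 36 with the block (12.9%), 5 of 28 at resolution 1.0 (4.36%), and 0 to 34 without a library. In trichoblast-like nuclei it was 2 of 24 (15.7%), 16 of 68 with no filter (16.9%), 0 of 16 with the first random start (8.48%), and 1 to 20 without a library. Differences among classes were called for 26 of 38 ATMG genes (92.3%). Without stress replicate 1 it was 21 of 36, where 14665 of all 16880 genes tested were called. Without stress replicate 2 it was 20 of 38 (15149 of 17637). Without control replicate 1 it was 25 of 30 (16037 of 17741), and without control replicate 2 it was 27 of 38 (15736 of 17625). The log2 change of ATMG00020 was between -0.72 and 0.06 when a library was left out, with 0.0588 without control replicate 1. The share difference was between -0.789 and 0.256 percentage points.

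Replicate numbers were not shown to pair the libraries, since deviations of same-numbered libraries correlated at 0.044 over all genes and at 0.11 over 17835 genes that averaged 50 counts or more, and each group has only 2 libraries. With the replicate block, 997 genes were higher and 376 lower in whole libraries, against 1400 and 633 without it. Only 48 of 152 ATMG genes had counts enough to be tested there, and fewer within classes, where 5 were tested in endodermis-like nuclei.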
